A study of Mus musculus with 10 samples.

Results

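The genes described are the adiponectin receptors Adipor1 and Adipor2, the adiponectin-binding cadherin Cdh13 and the leptin receptor Lepr. They are 4 of the 18193 genes on the array, and each of their 13 single-gene probe sets, of 45037 in all, was compared with the others of its gene. The genes and the comparison of their probe sets were chosen from results of these arrays already known, by the differences between genotypes. Those differences are therefore given below as a description of the members and carry no test.

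The arrays came from gastrocnemius, a mixed muscle of the calf, of 5 Skn-1 (Pou2f3) deficient and 5 wild-type male mice. All were 12 to 16 weeks old, ate chow and had been without food for 18 h. Per the labels the deficient line had a mixed origin (129 with C57BL/6J) and was then crossed back to C57BL/6J over more than 10 generations, and every array carries the mixed strain label. Whole muscle was used, so fewer cells of a type and less RNA per cell cannot be told apart.

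Adiponectin is a hormone of fat cells. Adipor1 and Adipor2 are membrane proteins through which it acts, Adipor1 mainly through the energy sensor AMPK and Adipor2 mainly through the fatty acid receptor PPAR alpha, and both are linked to ceramide breakdown. Cdh13 (T-cadherin) is held in the membrane by a lipid anchor and binds the large forms of adiponectin on vessel walls and muscle. Lepr is the receptor for leptin, a second fat hormone, and signals through the kinase JAK2 and the transcription factor STAT3.

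Values are those the authors deposited, read as log2, and differences are knockout minus wild type. Most probe sets hardly varied: 86.2% had an SD at or below 0.01 over the 10 arrays, and these are called low-variation here. Of the 13 receptor probe sets 4 varied on an ordinary scale, with SDs of 0.129 to 0.294, and 9 were low-variation, with SDs of 0.000128 to 0.000775. A difference in a low-variation probe set has no size that can be read as a change in RNA. The single Pou2f3 probe set was itself low-variation (6.47 in both genotypes) and does not check the labels. All 10 fast muscle markers were measured, and 5 of them varied. Their summed linear values ran from 122787 to 126511 in knockouts and from 122480 to 125405 in wild types. The low-variation markers add a nearly constant amount to each sum, which narrows these ranges. Some arrays carried genes of other tissues. B cell gene Ms4a1 stood at 7.85 in knockout 5 and 7.78 in wild type 3, against at most 5.53 elsewhere, with 9 of 10 lymphocyte markers measured and their sums from 654 to 2252 in knockouts and from 643 to 2321 in wild types. Hair keratin Krt25 was high in wild types 1 (9.10) and 3 (8.21), and the epidermal gene Krtdap in knockouts 1 (8.83) and 4 (9.06), against at most 7.17 elsewhere. All 10 epidermis and hair markers were measured, with sums from 701 to 2523 in knockouts and from 712 to 1845 in wild types.

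Adipor2 had 2 probe sets, both of which varied, and they gave different answers. Probe set 1437864_at read 7.83, 7.83, 7.92, 7.92 and 7.92 in knockouts 1 to 5, against 7.28, 7.30, 7.57, 7.21 and 7.43 in wild types 1 to 5. Every knockout lay above every wild type, and the wild types were spread more widely. The means were 7.88 ± 0.0492 in knockouts and 7.36 ± 0.144 in wild types (SD, n = 5 each). The difference was 0.52 ± 0.066 (SE), or 1.44 times the wild-type level, with 1 SE on either side running from 1.37 to 1.5 times. The wild-type mean lay 1.13 above the array medians, and no detection call was at hand.

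The other probe set, 1434329_s_at, did not follow. It read 9.38, 9.58, 9.44, 9.64 and 9.63 in knockouts 1 to 5, against 9.35, 9.65, 9.69, 9.40 and 9.62 in wild types 1 to 5. The groups overlapped over nearly their whole range. Its means were 9.53 ± 0.115 in knockouts and 9.54 ± 0.154 in wild types (SD, n = 5 each), and the difference was −0.0063 ± 0.084 (SE). The suffix s_at marks probes that may also match other transcripts, so this probe set need not read Adipor2 alone. Within each array, 1437864_at minus 1434329_s_at was −1.65 ± 0.104 in knockouts and −2.18 ± 0.107 in wild types (SD, n = 5 each). This gap thus differed by 0.53 ± 0.07 (SE) between genotypes; its own size has no meaning, since probe sets differ in brightness. The probe sequences were not used here, so the part of the transcript each set reads is not known.

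**Figure D1:**
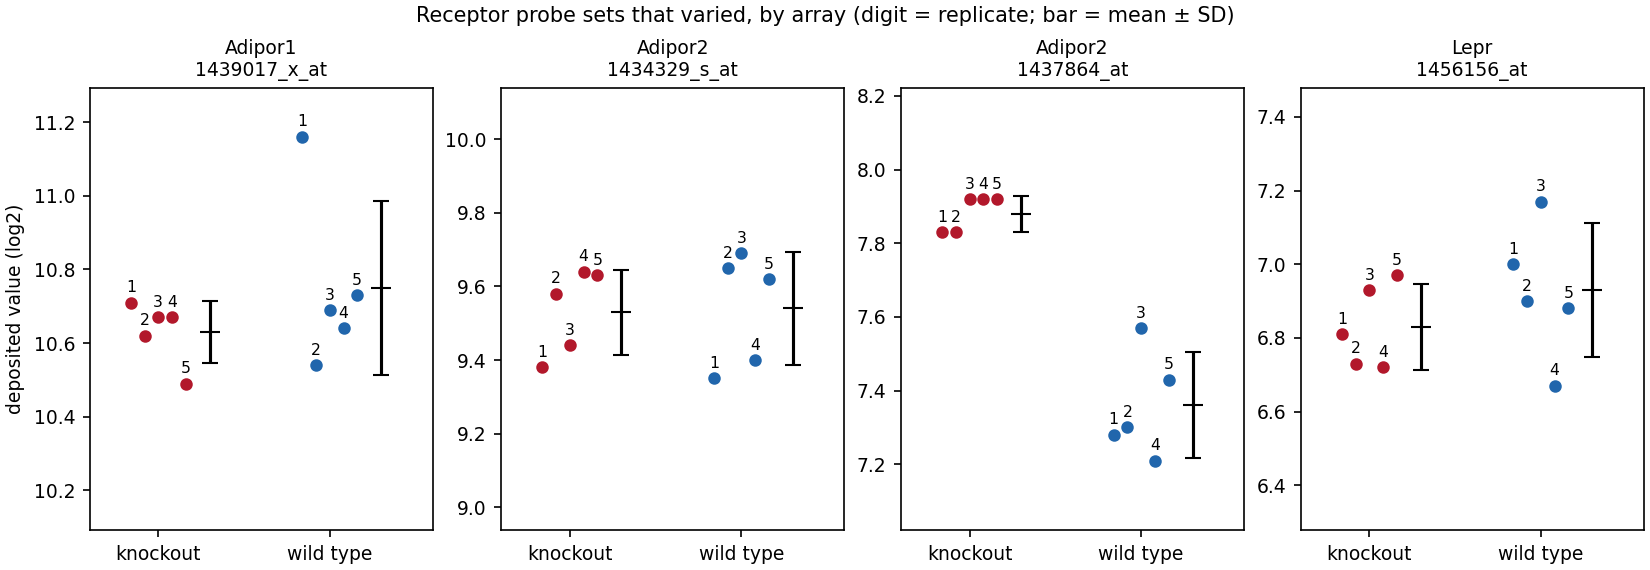
Deposited log2 value of the 4 receptor probe sets that varied, in 5 knockout and 5 wild-type arrays; points are arrays with their replicate number, bars are mean ± SD, and each panel spans the same width on its own log2 axis. The groups stand apart for Adipor2 1437864_at, and overlap for Adipor1, for Adipor2 1434329_s_at and for Lepr, with wild type 1 far above the rest for Adipor1 (11.16).

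Of the 13 receptor probe sets, Adipor2 1437864_at was the 1 among the 86 probe sets (0.191% of 45037) with an adjusted limma p under 0.05. That call belongs to how the genes were chosen and supports nothing here. No overlap between genotypes, in the direction of higher knockouts, was seen in 1.14% of all probe sets and in 3.37% of those that varied. In the 10 fits that each left out 1 array the difference lay between 0.49 and 0.58, while the probe set stayed past the threshold in 1 of them, the fit without wild type 3. The 5 arrays that carried lymphocyte, hair or epidermis genes were knockouts 1, 4 and 5 and wild types 1 and 3. Without them the difference was 0.56, between knockouts 2 and 3 and wild types 2, 4 and 5 alone.

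Adipor1, the receptor most abundant in skeletal muscle, did not separate the genotypes. Its varying probe set 1439017_x_at read 10.71, 10.62, 10.67, 10.67 and 10.49 in knockouts 1 to 5, against 11.16, 10.54, 10.69, 10.64 and 10.73 in wild types 1 to 5. Wild type 1 alone stood clear of the other arrays. The suffix x_at, like s_at, marks probes that may also match other transcripts, so this probe set need not read Adipor1 alone. The means were 10.63 ± 0.0849 in knockouts and 10.75 ± 0.236 in wild types (SD, n = 5 each). Their difference of −0.12 ± 0.11 (SE) came to −0.022 without wild type 1, and to 0.027 without the 3 arrays that carried lymphocyte or hair genes. Wild type 1 also had the highest Krt25 value; the part of hair tissue in its Adipor1 reading was not tested, while wild type 3, with the second highest Krt25, read 10.69. The low-variation probe sets 1424312_at (7.93) and 1451311_a_at (10.28) were highest in wild type 1 too, so all 3 Adipor1 probe sets put the same array first.

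The 4 Lepr probe sets had means at percentiles 19.2 to 71.4 of all probe sets. Probe set 1456156_at, the Lepr set that varied, read 6.81, 6.73, 6.93, 6.72 and 6.97 in knockouts 1 to 5, against 7.00, 6.90, 7.17, 6.67 and 6.88 in wild types 1 to 5. Both the highest and the lowest array were wild types, and the groups overlapped. The means were 6.83 ± 0.116 in knockouts and 6.93 ± 0.183 in wild types (SD, n = 5 each), with a difference of −0.10 ± 0.094 (SE). Without wild type 3 this was −0.034, and without wild type 4 it was −0.16. The other 3 Lepr probe sets were low-variation, at 6.31 (1425644_at), 5.79 (1425873_a_at) and 6.14 (1425875_a_at) in both genotypes. Both 1425873_a_at and 1425875_a_at were lower than every array's median (6.226 at the least), and none of the 3 was shown to be above background.

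All 4 probe sets of Cdh13 were low-variation, so its data allow no statement on the size of a change. They stood at 8.70 (1434115_at), 7.98 (1423551_at), 6.27 (1454015_a_at) and 5.60 (1431824_at) in both genotypes. The first and second lay 2.47 and 1.75 above the array medians, and the last lay at −0.63 from them in both genotypes. Cdh13 is known from vessels. Of the 10 endothelial markers measured, 6 varied, 2 of them higher and 4 lower in knockouts. The summed endothelial values ran from 2847 to 3391 in knockouts and from 2884 to 3369 in wild types. Cdh5, the cadherin of endothelial junctions, averaged 9.02 in knockouts and 9.09 in wild types.

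Agreement between probe sets of a gene was then examined within genotype, after subtracting each genotype's mean, which does not use the difference between genotypes. The 2 Adipor2 probe sets tended to go together over the 10 arrays (r = 0.65, exact two-sided permutation p = 0.0788; rho = 0.55, exact p = 0.145), without reaching 0.05. Without the 2 arrays farthest from the median of 1434329_s_at, r was 0.61 (exact p = 0.212). This was the single pair in which both sets varied. Its r rests mostly on the wild types, since 1437864_at varied less in knockouts (SD 0.0492, against 0.144).

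Low-variation sets were added to this comparison by rank after the data had been seen, which gave 16 pairs. Of these, 11 had a rho above 0, 3 had an unadjusted exact p under 0.05 and 2 passed after Benjamini-Hochberg adjustment over the 16. Lepr 1425644_at, with an SD of 0.000285, ordered the arrays much as the varying set 1456156_at did (rho = 0.95, adjusted exact p = 0.02; r = 0.94, exact p = 0.000208). Without knockout 5 and wild type 3 the r of this pair was 0.90 (exact p = 0.00347). Adipor1 1451311_a_at likewise followed 1439017_x_at (rho = 0.90, adjusted exact p = 0.0345; r = 0.98, exact p = 0.000625), with r = 0.90 without knockout 5 and wild type 1 (exact p = 0.0174). The 6 pairs of Cdh13 ran from −0.55 to 0.45 in rho, and none passed. The other low-variation Lepr sets, 1425873_a_at and 1425875_a_at, did not pass against 1456156_at (rho = 0.15 and 0.50, adjusted exact p = 0.84 and 0.341), and Lepr pairs went down to a rho of −0.20. Thus 1 low-variation set of Adipor1 and 1 of Lepr shared the order of the arrays with the varying set of their gene, and the others did not pass.

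**Figure D2:**
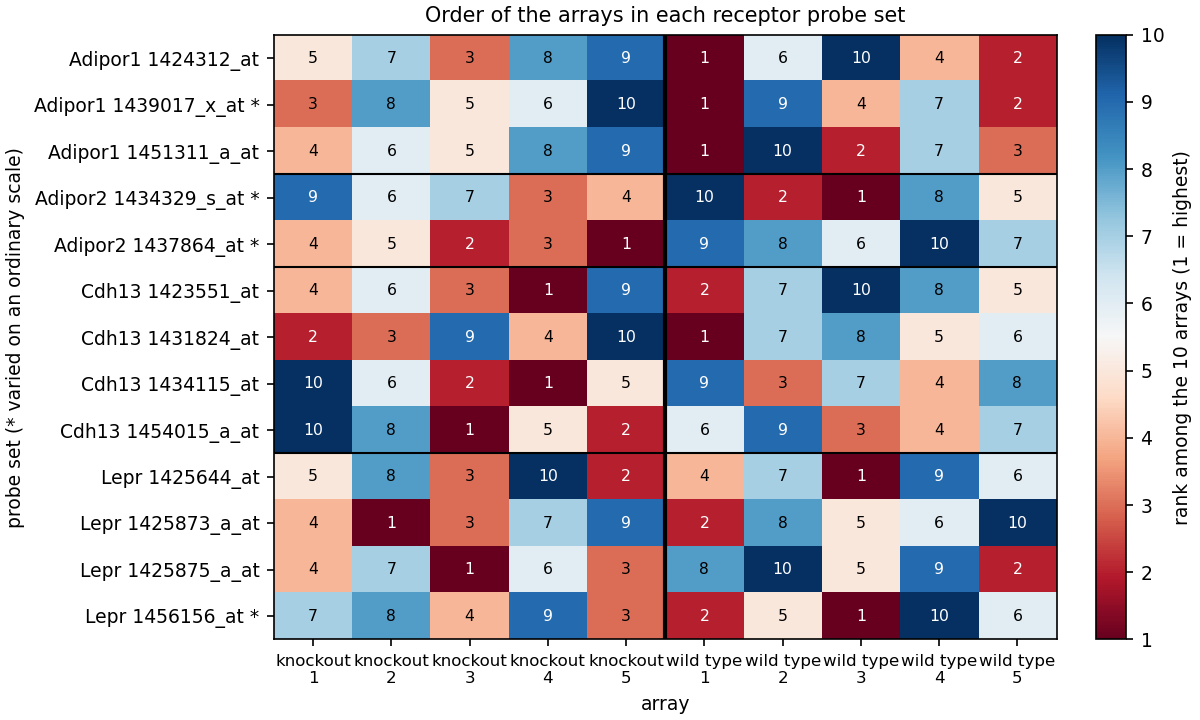
Rank of each of the 10 arrays (columns, knockouts left of wild types) in each of the 13 receptor probe sets (lines; an asterisk marks the 4 that varied), with 1 for the highest array. All 3 Adipor1 sets put wild type 1 first, Lepr 1425644_at and 1456156_at share wild type 3 as highest, and ranks 1 to 5 of Adipor2 1437864_at are all knockouts.

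Fat cell genes varied between arrays of both genotypes, and their relation to the receptors was examined. Adipoq, which encodes adiponectin, read 9.29, 9.38, 9.46, 10.74 and 10.81 in knockouts 1 to 5, against 9.23, 9.98, 11.49, 8.44 and 10.55 in wild types 1 to 5. The mean was 9.94 in both genotypes, and the groups overlapped widely. In wild types the order of the 5 arrays by Adipoq was their order by Adipor2 1437864_at, while in knockouts the orders differed. The order by Adipor2 1434329_s_at differed from that by Adipoq in both genotypes. Of 9 adipocyte markers 7 were measured, 4 of them higher and 3 lower in knockouts, and their summed values ran from 15551 to 20794 in knockouts and from 15518 to 23072 in wild types.

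Over all 10 arrays, after subtracting genotype means, the mean log2 value of the 7 adipocyte markers had a positive correlation with Adipor2 1434329_s_at (r = 0.85, exact two-sided permutation p = 0.0091; rho = 0.70, exact p = 0.0522) and with 1437864_at (r = 0.83, exact p = 0.00618; rho = 0.70, exact p = 0.0522). In 1437864_at the SD was 0.0492 in knockouts against 0.144 in wild types, so its r rests mostly on the wild types. Without wild types 3 and 4, the arrays with the most extreme adipocyte values, r was 0.81 (exact p = 0.0444) and 0.61 (exact p = 0.107), so the second relation leaned on those arrays. These were 2 of 28 relations between the 4 varying receptor sets and 7 marker lists. Of the 28, 3 had an unadjusted exact p under 0.05 by Pearson's r and 0 by rho, and none passed after adjustment (adjusted p = 0.127 for both Adipor2 sets). The third was Adipor2 1437864_at with lymphocyte markers over 8 arrays (r = 0.80, exact p = 0.0469, adjusted p = 0.438; rho = 0.70, exact p = 0.111), with r = 0.34 without wild type 5 and knockout 4 (exact p = 0.694). Knockout 5 and wild type 3, which stood apart on that list, were left out of it, and the 4 arrays high in epidermis or hair genes were left out of the epidermis list. Of the lymphocyte markers 6 had a probe set below the median level, and Ms4a1 was at most 5.53 in the 8 arrays. The r with that list therefore need not reflect lymphocyte content. Whether fat in the samples takes part in the Adipor2 readings was not tested beyond this.

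**Figure D3:**
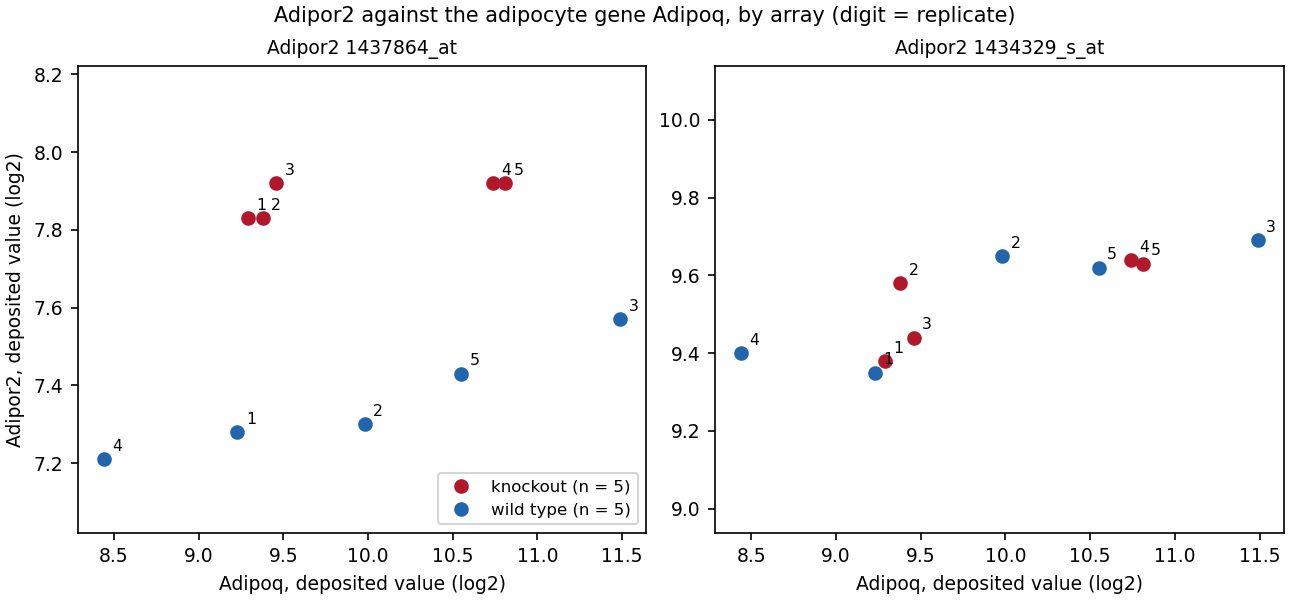
Deposited log2 value of the 2 Adipor2 probe sets (vertical axes) against that of Adipoq (horizontal axis) in 5 knockout and 5 wild-type arrays, each point an array with its replicate number. For 1437864_at the knockouts (7.83 to 7.92) lie above the wild types (7.21 to 7.57), whereas for 1434329_s_at the genotypes overlap; the part of Adipoq or of fat in either pattern was not tested between genotypes.

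Likeness to other genes was measured as Pearson's r over the 10 arrays after subtracting genotype means, among about 5342 named probe sets that varied; arrays are shared by all points, and no test applies. Such an r weighs most the arrays farthest from their genotype's mean. These were wild types for Adipor2 1437864_at and wild type 1 for Adipor1 1439017_x_at, and likeness was not measured without them. Closest to Adipor2 1434329_s_at were Sowahc (0.95), both varying sets of the chloride channel gene Clic4 (0.95 and 0.94), the phosphodiesterase Pde3b (0.94) and Pparg (0.93), the master regulator of fat cells. Closest to 1437864_at were Iah1 (0.97), B3galt2 (0.96), Tmem120a (0.96), the mitochondrial protein gene Tspo (0.95) and the fatty acid receptor Ffar2 (0.95). The differences of these 5 between genotypes lay between −0.20 and 0.019. B3galt2 averaged 5.86 in knockouts and 5.84 in wild types, below the lowest array median (6.226). Ffar2 averaged 6.16 and 6.27, close to it, and neither was shown to be above background. For Adipor1 1439017_x_at the closest were the glutathione transferase Gstm5, Eloc, Bola3 and Vti1b (each 0.99) and Coa6 (0.98), and 165 probe sets (3.09%) reached 0.9. For Lepr 1456156_at they were Ccdc69 (0.90), Use1, the protease Ctsz and Aldh9a1 (each 0.88) and Snn (0.87). Sets that reached 0.9 numbered 18 (0.337%) for Adipor2 1434329_s_at, 44 (0.824%) for 1437864_at and 0 for Lepr, where Ccdc69 was just under.

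The genes around the receptors were described through 7 lists of ligands, relatives, partners and signalling genes that hold no member. Of their 64 genes 59 had a single-gene probe set, with 133 sets in all, 40 of which varied. None of the 133 passed an adjusted limma p of 0.05 over all probe sets, while at an unadjusted p under 0.05 there were 11 of 133 with higher knockout means (8.27%, against 3.85% over the whole array) and 2 of 133 with lower ones (1.5%, against 2.77% over the whole array). The 40 that varied came from 24 genes and are not separate readings. Of the 40, 30 were above 0 (75%, against 49.2% of all varying probe sets). At an unadjusted limma p under 0.05, 9 were higher (22.5%, against 7.44% of all varying probe sets) and 0 lower (2.48% of all varying). Those 9 came from just 4 genes, Ppargc1a (4 sets), Prkaa2 (2), Prkab2 (2) and Cab39 (1), so they are not 9 separate readings. The lists were chosen with earlier results of these data known, so the shares here and below describe them and test nothing. The median difference of the 40 was 0.16, and that of all varying probe sets −0.0021.

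Among the ligands, Lep (leptin) averaged 6.54 ± 0.431 in knockouts and 6.22 ± 0.252 in wild types (SD, n = 5 each; adjusted p = 0.916, limma). C1qtnf9, a relative of adiponectin, averaged 8.34 ± 0.146 in knockouts and 8.44 ± 0.153 in wild types (SD, n = 5 each; adjusted p = 0.954, limma). Of 9 relatives of the receptors Mmd alone varied, and its 3 sets were between −0.091 and −0.039. The 4 measured receptor partners, among them the adaptor Appl1, were low-variation in all 8 sets.

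The next list held the subunits of AMPK, the kinase complex downstream of Adipor1, with its upstream kinases and its substrates. Of its 11 varying sets 10 were above 0 (49.2% of all varying probe sets were), with a median of 0.20, but they came from 6 genes and are not separate readings. Prkaa2, the catalytic alpha 2 subunit that dominates in muscle, had 3 sets. Set 1429464_at read 8.93, 8.57, 8.77, 8.69 and 8.62 in knockouts 1 to 5, against 8.38, 8.28, 8.05, 8.29 and 8.11 in wild types 1 to 5. The groups did not overlap, and the difference was 0.50 ± 0.086 (SE), or 1.41 times the wild-type level, with an adjusted limma p of 0.0936. Over 20 alternatives this adjusted p ran from 0.0153 to 0.83 and passed in 1, the fit of varying sets alone. Set 1429463_at did not overlap either, with 9.44 to 9.61 in knockouts and 9.12 to 9.43 in wild types (0.29 ± 0.059 SE, limma adjusted p = 0.176), and passed in 1 of 19 alternatives, without wild type 4 (adjusted p = 0.0312, in a range from 0.0312 to 0.879). Set 1434766_at overlapped (0.11 ± 0.061 SE, limma adjusted p = 0.857). These were the 2 pathway sets of 40 without overlap, against 3.37% of all varying sets in that direction. Prkab2, a regulatory beta subunit, was at 0.21, 0.22 and 0.20 in its 3 sets (limma adjusted p from 0.608 to 0.934), and Prkag3, the gamma subunit of glycolytic muscle, at −0.0033.

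**Figure D4:**
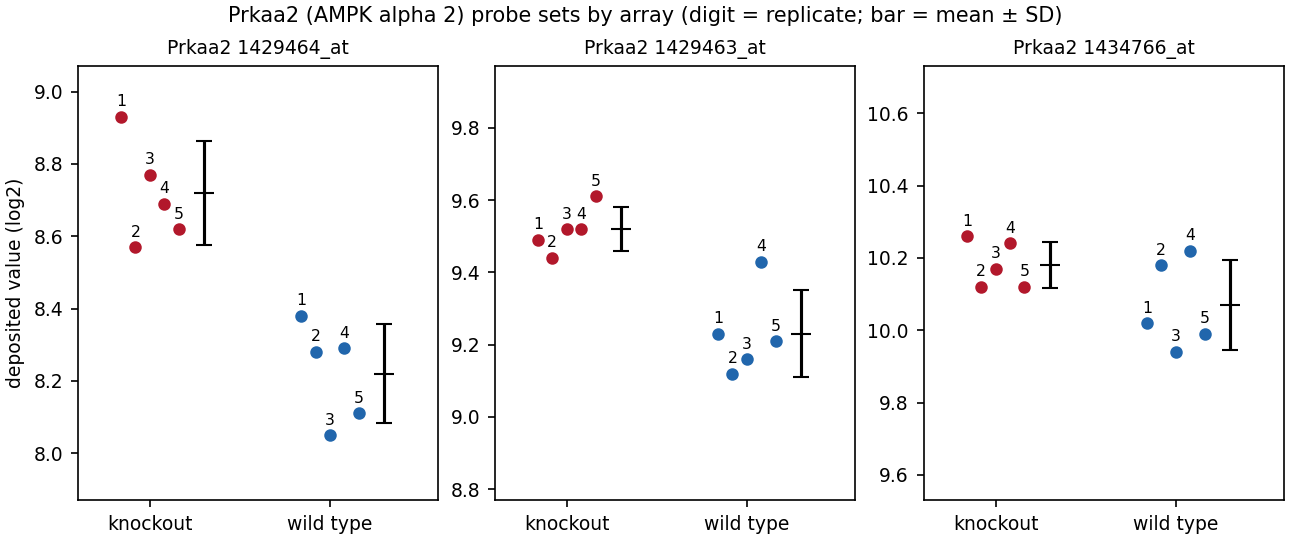
Deposited log2 value of the 3 Prkaa2 probe sets in 5 knockout and 5 wild-type arrays, with mean ± SD; panels run from the lowest to the highest mean and span the same width. The genotypes are apart in 1429464_at (difference 0.50) and by a small margin in 1429463_at (0.29), and overlap in 1434766_at (0.11).

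Among targets downstream, Ppargc1a, the coactivator of mitochondrial genes, led the list. Its set 1460336_at read 7.61, 8.22, 8.53, 9.78 and 8.82 in knockouts 1 to 5, against 7.56, 7.53, 7.84, 7.75 and 7.32 in wild types 1 to 5. Knockout 4 was far above the rest and knockout 1 lay among the wild types. The difference of 0.99 ± 0.36 (SE) did not pass (limma adjusted p = 0.633), nor did that of 1456395_at (0.82 ± 0.31 SE, limma adjusted p = 0.661), and both were lowest, at 0.69 and 0.54, in the fits without knockout 4. Slc2a4, the insulin-regulated glucose transporter, was at −0.0058 and −0.081, and Ppara, the factor tied to Adipor2, at 0.024 in its 1 varying set.

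In leptin receptor signalling all 9 varying sets were above 0 (49.2% of all varying probe sets were), but they came from 7 genes and are not separate readings. None of the 9 had an unadjusted limma p under 0.05. Their median was 0.036 and the lowest 0.0069. Irs2, an adaptor of the insulin receptor, differed by 0.36 ± 0.25 (SE; limma adjusted p = 0.931), and its lowest array was wild type 1 at 7.06, without which the difference was 0.13. Irs1 differed by 0.17 ± 0.24 (SE; limma adjusted p = 0.977), and by −0.24 to 0.28 over the alternatives. Jak2, the kinase bound to Lepr, was at 0.036 and 0.019, and Stat3 at 0.017. Leprot, which neighbours Lepr on the chromosome, was low-variation in its 3 sets. Of the cadherins, Cdh4 differed by 0.20 and 0.21 in its 2 sets (limma adjusted p = 0.884 and 0.947).

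**Figure D5:**
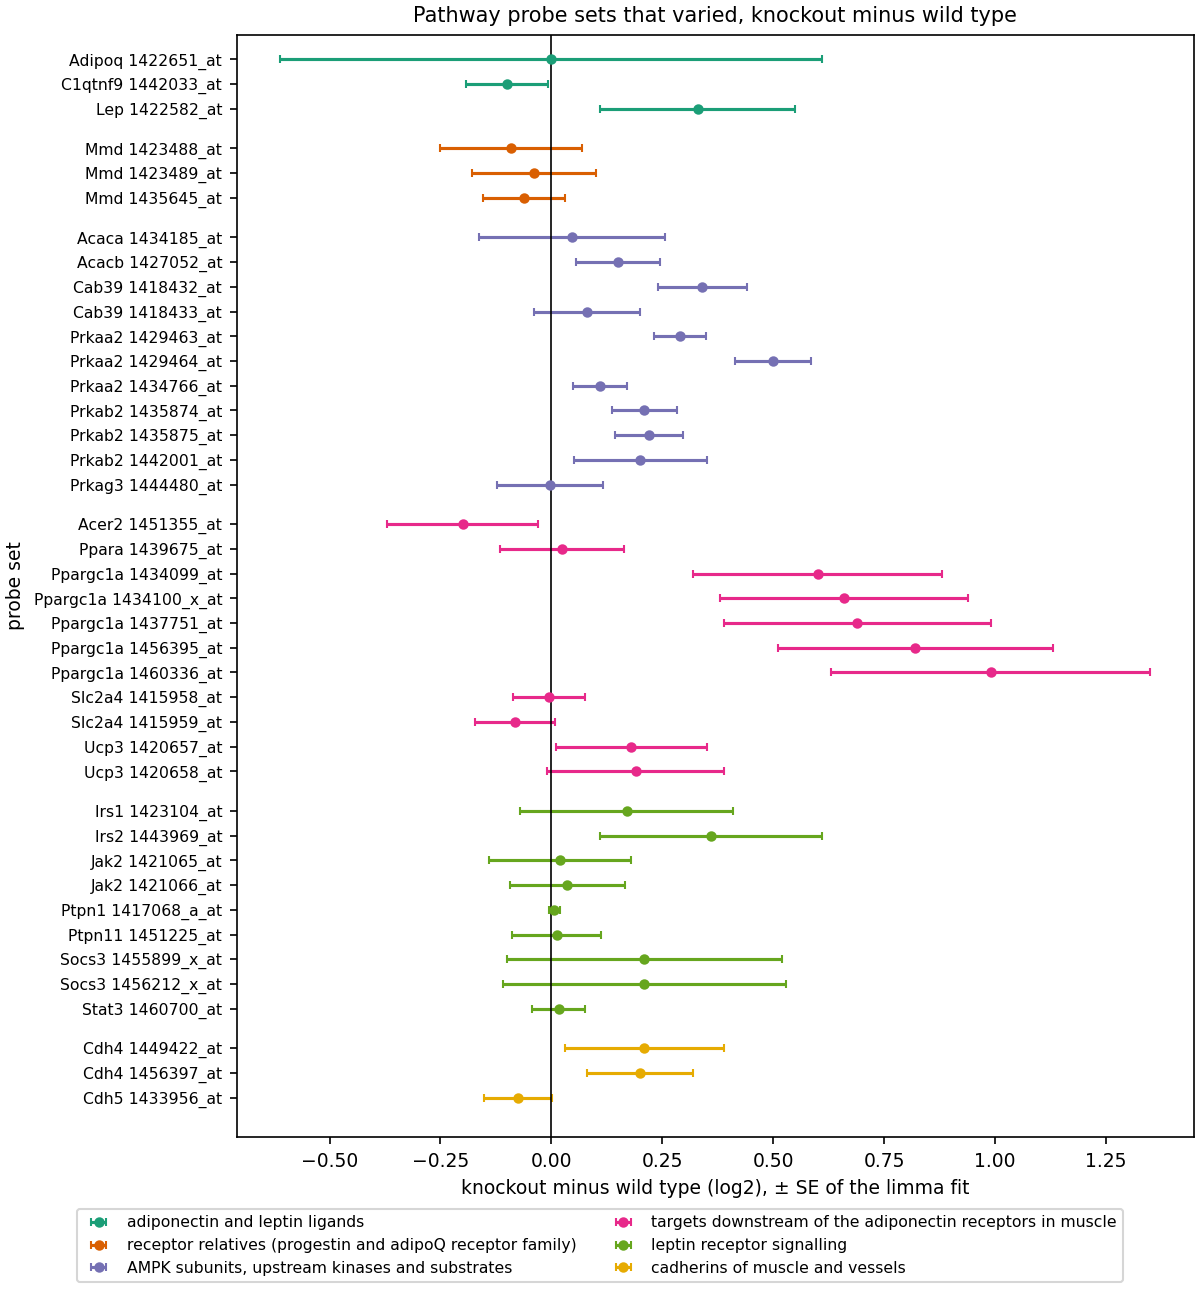
Knockout minus wild type (log2, horizontal axis) for the 40 pathway probe sets that varied, with the SE of the limma fit, coloured by gene list; receptor partners have no point because none of their sets varied. The Ppargc1a sets lie farthest to the right with wide errors (up to 0.99 ± 0.36), and the AMPK list has 10 of 11 points, from 6 genes, above 0.

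In 10 pathway genes with 2 or more varying sets, the sets of each gene shared a sign, and the spread of their differences ran from 0.0067 (Socs3) to 0.39 (Ppargc1a) with a median of 0.04. Prkaa2 came next at 0.38, followed by Cab39, a scaffold of the kinase that activates AMPK, at 0.26.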

How the data were processed

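The 10 arrays were Affymetrix Mouse Genome 430 2.0, per the series' design text, made from 100 ng of RNA by 3′ in vitro transcription labelling, per the labels' protocols. The deposited log2 values are the authors' own; how they were summarized and normalized, and the log base, is not given in the sources used here; log2 is read from their range (4.93 to 13.96). Of 45101 probe sets, 64 array controls were left out. Probe sets were named through the platform annotation, with symbols brought up to date by a RefSeq gene table (GRCm38.p6); 34945 probe sets had 1 gene (34741 matched), 932 several and 9160 none.

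Genotypes were compared with limma 3.58.1 under R 4.3.3, with default eBayes moderation; p-values were adjusted by Benjamini-Hochberg over all 45037 probe sets and called at 0.05. The fit was also run on simulated data with independent noise in each probe set. Those data hold no tissue differences between arrays, so that run does not check the calls made here. Correlations used exact two-sided permutations of arrays within genotype (Python 3.11.15). The labels call the arrays biological replicates, and their number limits precision. Members, lists and tests were chosen with earlier results of these data known. Named pathway genes are, per list, those past the threshold or else the 2 varying probe sets with the smallest p; others named in passing were chosen after their values were seen. Alternatives covered scaling, filters, moderation, array weights, a replicate block, 1 probe set per gene and arrays left out. The replicate number was not used as a pairing in the main fit.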

Additional observations from a re-analysis of the deposited data

Results flagged for a closer look

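In 26 groups of 5 arrays of the receptor probe sets and 24 of the named pathway sets, the gap of the highest or lowest array to its neighbour was set against the group's range (critical value 0.71 for 5 arrays). Wild type 1 of Cdh13 1431824_at stood out with a ratio of 0.813, in a low-variation set at 5.60 in every array, so that the gap has no size to read. Chance gives about 1 in 20 groups.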

How the results depend on the processing

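The count of 86 probe sets past the threshold over the whole array was 43 after quantile normalization, 143 among varying probe sets alone and between 31 and 57 in the fits that left out 1 array. With the replicate block it was 5. Same-numbered deviations correlated between −0.40 and 0.32, over 0.1 in 2 of 5 pairs, and other-numbered ones between −0.39 and 0.69. Of 5 knockouts, 2 correlated best with the wild type of their number. These values do not settle whether the numbers pair the arrays. The count over the whole array was 4 without the 3 arrays that carried lymphocyte or hair genes. It was 0 without the 5 that carried lymphocyte, hair or epidermis genes (limma, 2672 at an unadjusted p under 0.05). Both alternatives were chosen after seeing the data, and fewer arrays remain in them. The pathway count of 0 became 1 among varying sets alone and ranged from 0 to 1 in the fits that left out 1 array; it stayed 0 with the replicate block. Adipor2 1437864_at differed by 0.49 to 0.58 under 15 alternatives and was past the threshold in 8 of 20 fits. The other 3 varying receptor sets moved by less than 1 SD between replicates, with either sign among them: −0.17 to 0.027 for Adipor1, −0.055 to 0.032 for Adipor2 1434329_s_at and −0.16 to 0.01 for Lepr. The Adipor2 correlation within genotype stayed between 0.55 and 0.77.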
